A study of Mus musculus with 8 samples.

Results

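Transforming growth factor beta (TGF-β) genes were followed in single stromal cells from intact and from fractured mouse femurs. The set was fixed by name, with earlier results of these data known, and held 10 of the 28956 genes in the count tables. It held the ligands Tgfb1, Tgfb2 and Tgfb3 and the receptors Tgfbr1, Tgfbr2 and Tgfbr3. The other members were the latent TGF-β binding protein family genes Ltbp1, Ltbp2 and Ltbp3, and Tgfbi. The Fracture group came from female C57BL/6 mice whose left femur was broken by bending at 10 weeks of age and held with an intramedullary nail, under ketamine and xylazine anaesthesia and with carprofen against pain. Their femurs were taken at day 14, a stage at which bone takes the place of the soft callus. Control femurs were those of wild-type females of 12 weeks that had no fracture. Neither surgery, anaesthesia nor carprofen is described for Control, so the break and its treatment cannot be told apart. In both groups, blood cells had been depleted from the suspension with antibodies. The sample titles give each group 2 numbers with 2 replicates each. These are read here as 2 cell preparations with 2 droplet libraries each, 8 libraries in all, which the titles do not spell out. The labels do not say how many animals went into a preparation.

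TGF-β is made as a dimer that stays wrapped in its own propeptide. In this latent form it is bound by a latent TGF-β binding protein (LTBP) and stored in the matrix until integrins or proteases set the ligand free. The active ligand is bound by the type II receptor TGFBR2, which phosphorylates the type I receptor TGFBR1, and SMAD2 and SMAD3 then carry the signal to the nucleus. TGFBR3, also called betaglycan, is a membrane proteoglycan without a kinase that presents the ligand, TGF-β2 in particular, and whose shed form can trap it. Bone matrix is a large store of latent TGF-β, and the factor is known from growth plate and callus as a regulator of cartilage formation and of the coupling between bone resorption and formation.

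The libraries held 45328 cells after filtering, 20676 from Control and 24652 from Fracture, with a median of 7711 and 11351 unique molecular identifiers (UMIs, each a captured transcript) per cell. Cell classes were rebuilt by clustering and named from fixed marker genes, with the members and their pathway lists kept out of the clustering. The smallest barcode held 1 UMI in Control and 1929 UMIs in Fracture, and 85.6% and 99.6% of the barcodes were kept, so the Fracture tables hold no small barcodes. Any 2 libraries shared between 11 and 46 cell barcodes. Chondrocyte-like cells numbered 2041 and 670 in the Control preparations 1 and 2, and 6724 and 7035 in the Fracture preparations. Osteoblast-like cells numbered 1686, 1003, 1644 and 1764 in the same order, bone marrow stromal cell (BMSC)-like cells 2622, 1735, 1026 and 1109, and endothelial-like cells 1627, 1251, 1208 and 1404. The smaller classes were fibroblast-like cells, with 409, 127, 765 and 898, and smooth muscle-like cells, with 731, 212, 167 and 166. For each preparation the UMIs of all cells in a class were added up, and they are given as CPM, the usual scaling of counts to a common library total, scaled within each class. Orders of level given for a gene are among these 6 classes and leave out blood cells. A sum over a class cannot tell a change in every cell from a change in the mix of cells within the class.

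Class names held to a different extent in the groups. The summed level of the 6 BMSC markers (Cxcl12, Lepr, Pdgfrb, Kitl, Adipoq and Esm1) was 26664 and 27783 CPM in BMSC-like cells of Control and 1838 and 2130 CPM in those of Fracture, 7.29% of the Control level. In Fracture these markers were still highest in BMSC-like cells, and all 6 were lower than in Control. Smooth muscle-like cells held 6.65% and 6.18% of that level in Control and 62.8% and 46.9% in Fracture. Endothelial-like cells held 7.17% and 4.87% in Control and 33.9% and 32.6% in Fracture. The name BMSC-like is thus kept only as a label for Fracture. The 6 fibroblast markers in BMSC-like cells stood at 106 and 57.4 CPM in Control and at 1217 and 1330.05 CPM in Fracture. Own markers of the other classes in Fracture came to 111% of the Control level in chondrocyte-like, 81.9% in endothelial-like, 67.0% in smooth muscle-like, 45.2% in osteoblast-like and 32.5% in fibroblast-like cells. Values of the members in BMSC-like cells are therefore also given from clusters made without integrating the libraries. Marker sums, and levels given as a percent of those in another class, are UMIs over the class total without the TMM scaling factors used for the levels of the members, so that ratios of the printed levels can differ from them.

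The gene models lie on separate chromosomes except for Tgfb3 and Ltbp2, which both map to chromosome 12 (GRCm38). Upstream sequences are shown for Tgfb1, Tgfb2 and Tgfbi, the 3 members that passed the test as higher in Fracture in 4 or more of the 6 classes. The set of RefSeq promoters used here held 10 promoters for 8 of the 10 members, and none for Tgfb3 and Tgfbr3. Capitals mark the SMAD box CAGAC and the GC box GGGCGG on either strand (GTCTG and CCGCCC on the other), and none of these matches overlapped. Each run is the 250 bases before the transcription start, 5′ to 3′ on the strand of the gene, in GRCm38.p6 by RefSeq. The window of Tgfbi reaches into the gene model used for its coordinates, whose start lies at 56609523.
Tgfb1 (chr7:25686752-25687001, plus strand): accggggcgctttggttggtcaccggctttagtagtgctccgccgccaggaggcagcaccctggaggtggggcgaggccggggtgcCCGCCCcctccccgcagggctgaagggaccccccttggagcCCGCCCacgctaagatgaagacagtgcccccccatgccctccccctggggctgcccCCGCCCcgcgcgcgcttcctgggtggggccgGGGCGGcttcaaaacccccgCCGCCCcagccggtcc
Tgfb2 (chr1:186705990-186706239, minus strand): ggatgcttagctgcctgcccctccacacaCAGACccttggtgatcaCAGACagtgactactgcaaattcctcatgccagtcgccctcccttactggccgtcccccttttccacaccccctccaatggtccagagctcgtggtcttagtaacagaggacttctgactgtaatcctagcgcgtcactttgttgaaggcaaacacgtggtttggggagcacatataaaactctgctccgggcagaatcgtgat
Tgfbi (chr13:56609336-56609585, plus strand): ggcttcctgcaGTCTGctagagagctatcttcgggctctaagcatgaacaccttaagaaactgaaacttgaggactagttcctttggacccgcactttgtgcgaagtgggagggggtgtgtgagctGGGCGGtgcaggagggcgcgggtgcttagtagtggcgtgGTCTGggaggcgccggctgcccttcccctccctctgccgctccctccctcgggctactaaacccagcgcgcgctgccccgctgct

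Tgfb1 held 5 GC boxes and 0 SMAD boxes in this window, Tgfb2 held 2 SMAD boxes and 0 GC boxes, and Tgfbi held 2 SMAD boxes and 1 GC box. Of 32851 promoters of the same length, 42.2% held a SMAD box and 32.7% a GC box, so either motif is common, and a match is only a description of these letters.

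Across the 6 classes the 10 members gave 60 comparisons of Fracture with Control. All 10 members passed the filter on low counts in every class, and the smallest value rested on 6 UMIs. By the quasi-likelihood test of edgeR, 33 of the 60 were called at an adjusted p under 0.05, with 18 higher and 15 lower in Fracture, and 27 were not called. The groups did not overlap in any of the 33, nor in some of the 27. With 2 preparations per group this adds little to a call, and the share of all genes without overlap was not counted. In chondrocyte-like cells 4 members rose and 2 fell, where 37% of all genes tested were called (19.1% higher and 17.9% lower). In osteoblast-like cells 3 rose and 1 fell, against 16.6% of all genes (9.89% higher, 6.75% lower). In BMSC-like cells 3 rose and 3 fell, against 53.2% (26.3% higher, 26.8% lower). In fibroblast-like cells 3 rose and 4 fell, against 13.9% (7.14% higher, 6.8% lower). In endothelial-like cells 2 rose and 3 fell, against 36.9% (19.6% higher, 17.3% lower), and in smooth muscle-like cells 3 rose and 2 fell, against 26.9% (14.2% higher, 12.7% lower). The median log2 fold change of the members lay between -0.01 in fibroblast-like and 0.17 in chondrocyte-like cells, beside -0.03 to 0.01 for all genes tested.

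**Figure D1:**
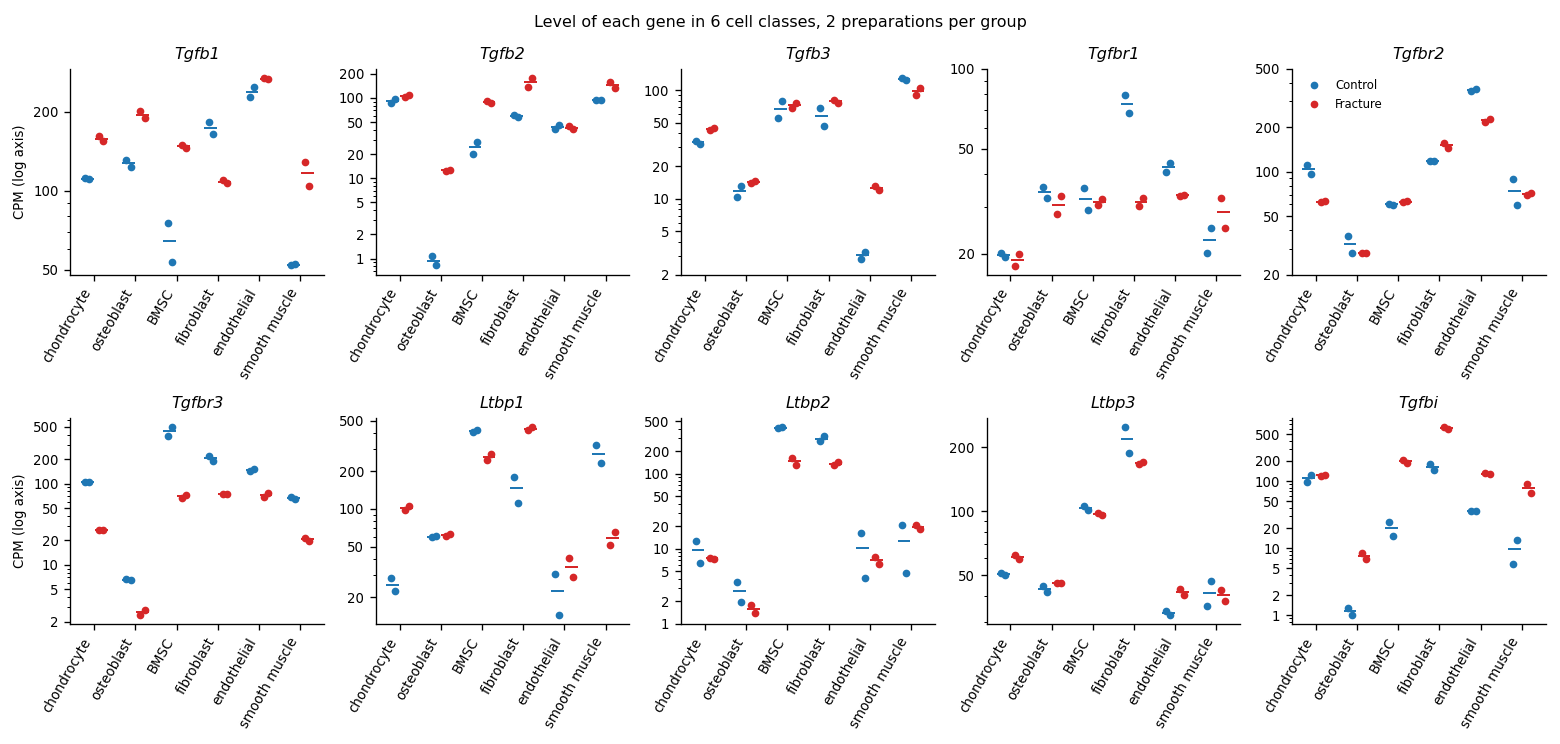
Level of the 10 genes in CPM (vertical log axis, a scale of its own in each panel) in 6 cell classes, with 1 point per preparation, Control in blue and Fracture in red, and a bar at the mean of each pair. Red points lie below blue points for Tgfbr3 in all 6 classes and above them for Tgfbi in every class but the chondrocyte-like, where the groups overlap.

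Most calls ended when a Fracture preparation was left out. The groups of all 33 did not overlap, so leaving out 1 preparation could hardly turn a direction. All 33 kept their direction when any 1 preparation was left out, but only 9 stayed called in each of the 4 such fits. They were Tgfb1, Tgfb2, Tgfbr3, Ltbp1, Ltbp2 and Tgfbi in BMSC-like cells, Tgfbr3 in chondrocyte-like cells, and Tgfbr3 and Ltbp1 in smooth muscle-like cells. Without a Fracture preparation, calls over all genes fell in every class as well, and BMSC-like cells kept the most. This list is therefore no result about these members alone. With either Fracture preparation left out, no member and no other gene was called in osteoblast-like, fibroblast-like or endothelial-like cells by edgeR, although 4, 7 and 4 members had an unadjusted p under 0.05. No call was lost without a Control preparation. In those 3 classes more of all genes were called without either Control preparation than with every preparation kept. The number of members called there was equal or higher, which is thus no result about the members.

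**Figure D2:**
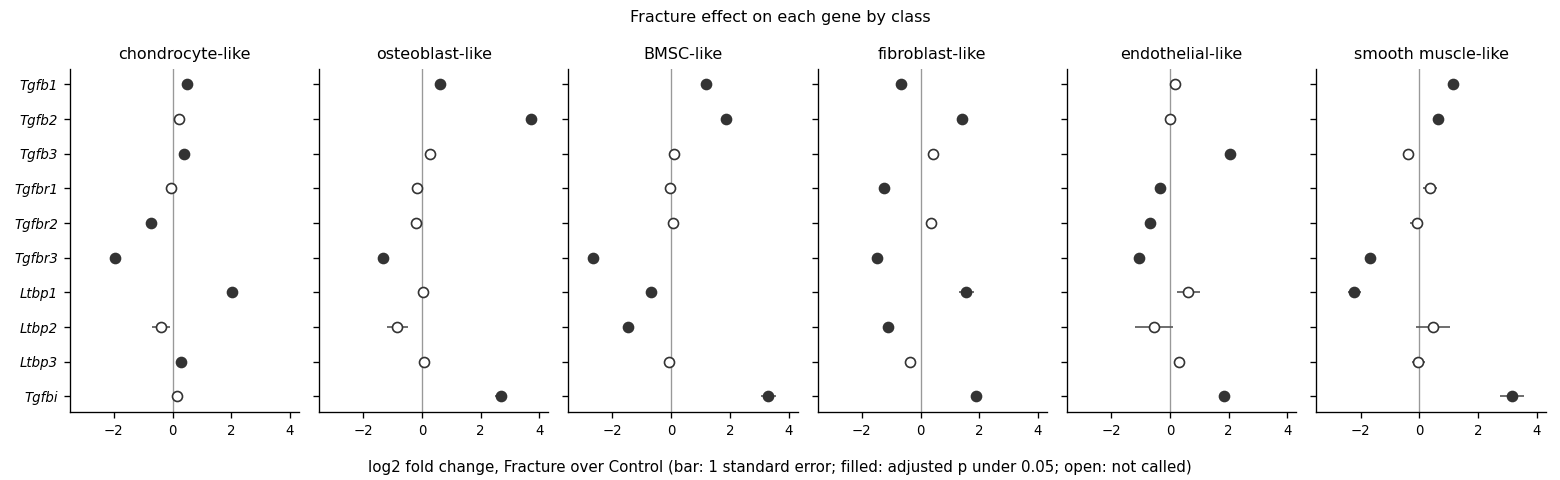
Log2 fold change of each gene, Fracture over Control, in 6 classes, with a bar of 1 standard error. Filled points have an adjusted p under 0.05, and open points were not called. Tgfbr3 lies left of 0 in every panel, and the members are spread over both sides of 0 in each class.

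Tgfb1 encodes the ligand that bone matrix stores in quantity. It rose in 4 classes, fell in fibroblast-like cells and was not called in endothelial-like cells, which held its highest level of the 6 classes. In BMSC-like cells Tgfb1 stood at 75.4 and 53.4 CPM in Control and at 149 and 146 CPM in Fracture, a rise of 1.19 ± 0.18 on the log2 scale (SE, n = 2 in each group, adjusted p = 0.00666 by edgeR). In smooth muscle-like cells it was 52.1 and 52.6 against 129 and 105 CPM (log2 1.16 ± 0.16).

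In osteoblast-like cells Tgfb1 was 132 and 123 CPM in Control and 201 and 189 in Fracture (log2 0.61 ± 0.07), and in chondrocyte-like cells 112 and 111 against 162 and 154 (log2 0.51 ± 0.05). In these 4 classes every Fracture preparation lay above every Control preparation, as in every call of a rise. Within the 4 chondrocyte subclusters compared further below, Tgfb1 was not called in any. Fibroblast-like cells went the other way, from 183 and 164 CPM to 110.1 and 107 CPM (log2 -0.68 ± 0.11, adjusted p = 0.0276), a call that was lost in 2 of 10 other ways of processing (adjusted p up to 0.160). In the one cluster of fibroblast-like cells that could be compared on its own, described after Tgfbi, Tgfb1 was not called and its groups overlapped. Endothelial-like cells held 228 and 248 CPM in Control and 268 and 266 CPM in Fracture (log2 0.17 ± 0.07, adjusted p = 0.126). In Control, fibroblast-like cells had the next highest level, and in Fracture they had the lowest, where they overlapped with smooth muscle-like cells. Of the 5 calls of Tgfb1, the one in BMSC-like cells stayed without any 1 preparation. The others were lost with either Fracture preparation left out, or, in smooth muscle-like cells, without Fracture preparation 1 (adjusted p between 0.0607 and 0.375).

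Tgfb2 encodes the ligand that binds poorly to TGFBR2 unless TGFBR3 presents it. It rose in osteoblast-like, BMSC-like, fibroblast-like and smooth muscle-like cells and fell in no class. Among the 9906 genes tested in all 6 classes, 8.49% were higher in at least 4 classes, as Tgfb1 and Tgfb2 were. In osteoblast-like cells Tgfb2 went from 1.07 and 0.824 CPM to 12.4 and 12.6 CPM (log2 3.70 ± 0.16, adjusted p = 0.00232), and this class had the lowest level of the 6 in both groups. In BMSC-like cells it was 19.9 and 28.4 CPM in Control and 90.9 and 85.9 CPM in Fracture (log2 1.87 ± 0.19).

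Fibroblast-like cells held 60.6 and 57.8 CPM of Tgfb2 in Control and 136 and 177 CPM in Fracture (log2 1.4 ± 0.16), and smooth muscle-like cells 93.7 and 94.1 against 159 and 134 CPM (log2 0.65 ± 0.14). The groups did not overlap in any of the 4, as in every call. Chondrocyte-like cells, among the classes with most Tgfb2 in Control, showed 87.0 and 96.3 CPM in Control and 102 and 109.5 CPM in Fracture (log2 0.21 ± 0.07, adjusted p = 0.0943). In endothelial-like cells the groups overlapped, at 40.6 and 45.6 against 44.5 and 41.1 CPM. The calls outside BMSC-like cells were lost with either Fracture preparation left out (adjusted p between 0.0705 and 0.200), and that in smooth muscle-like cells also in 2 of 10 other ways of processing (adjusted p up to 0.0826).

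Transcripts of chondrocytes were also more frequent in some other classes after fracture. In endothelial-like cells the 7 chondrocyte markers summed to 1.22% to 2.09% of their level in chondrocyte-like cells in Control and to 14.8% to 15.4% in Fracture, with all 7 called higher. In osteoblast-like cells the same sum was 3.78% to 4.00% in Control and 2.50% to 2.56% in Fracture, although 6 of the 7 markers were called higher. Tgfb2 in osteoblast-like cells amounted to 1.15% and 0.782% of the chondrocyte-like level in Control and to 13.3% and 12.2% in Fracture. The part of stray transcripts in the change of Tgfb2 was not tested.

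Tgfb3 was found in every class and is a ligand of the same family whose loss affects palate and lung. It rose in 2 classes. In endothelial-like cells, where it was lowest, it went from 2.81 and 3.22 CPM to 13.2 and 12.0 CPM (log2 2.06 ± 0.17, adjusted p = 0.00517). Without the scaling factors, its levels were 8.11% and 9.92% of the chondrocyte-like level in Control and 31.1% and 26.8% in Fracture, beside the higher chondrocyte marker sum given above, whose part was not tested. In chondrocyte-like cells Tgfb3 was 34.2 and 32.1 CPM in Control and 42.8 and 45.0 CPM in Fracture (log2 0.41 ± 0.07, adjusted p = 0.0146). Within their Chrdl2 Aldh1a3 subcluster, described further below, it was called lower (log2 -0.44 ± 0.08).

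Smooth muscle-like cells had the highest level of Tgfb3 in both groups, 130.2 and 124 CPM in Control and 90.5 and 106 CPM in Fracture (log2 -0.37 ± 0.14, adjusted p = 0.0988). The groups did not overlap there, nor in fibroblast-like cells, at 68.6 and 47.1 against 81.6 and 76.5 CPM, but neither was called. BMSC-like cells overlapped, at 56.0 and 79.1 against 68.1 and 76.9 CPM. Both calls of Tgfb3 were lost with either Fracture preparation left out (adjusted p between 0.0776 and 0.134).

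Tgfbr3, the co-receptor that presents the ligands, fell in all 6 classes. Of the 9906 genes tested in all classes, 0.343% were called lower in all 6. In BMSC-like cells Tgfbr3 went from 386 and 492 CPM in Control to 66.8 and 73.1 CPM in Fracture, a 6.27-fold lower mean (log2 -2.65 ± 0.15, adjusted p = 0.00108). In chondrocyte-like cells it was 104 and 104 CPM against 27.0 and 26.9 CPM (log2 -1.95 ± 0.05, adjusted p = 0.000804). These are the class with the highest Control level and the class with most cells in Fracture.

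In smooth muscle-like cells Tgfbr3 was 69.0 and 64.3 CPM in Control and 21.6 and 19.9 CPM in Fracture (log2 -1.68 ± 0.17). Fibroblast-like cells held 221 and 192 CPM against 75.4 and 73.4 CPM (log2 -1.47 ± 0.12), and endothelial-like cells 144 and 151 CPM against 67.7 and 75.8 CPM (log2 -1.04 ± 0.08). In osteoblast-like cells, where the gene was near the lower end, it was 6.65 and 6.44 against 2.45 and 2.77 CPM (log2 -1.32 ± 0.14). No Fracture preparation reached a Control preparation in any class, as in every call of a fall. In Control the classes stood apart from each other in Tgfbr3, and in Fracture 3 classes lay between 66.8 and 75.8 CPM. Of these, fibroblast-like and BMSC-like cells each overlapped with endothelial-like cells, but not with each other. The calls in fibroblast-like, endothelial-like and osteoblast-like cells were lost with either Fracture preparation left out (adjusted p between 0.0776 and 0.200), and the other 3 stayed. The call in osteoblast-like cells was also lost with the first library alone (adjusted p = 0.129).

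Markers of BMSC-like cells, which held most Tgfbr3 in Control, were lower in other classes as well, with 4 of the 6 called lower in each of 4 classes. Their sum went from 176 and 99.7 to 37.9 and 34.7 CPM in osteoblast-like cells and from 1912 and 1354 to 624 and 694 CPM in endothelial-like cells. It went from 868 and 531 to 231 and 254 CPM in fibroblast-like and from 1774 and 1716 to 1154 and 998 CPM in smooth muscle-like cells. In chondrocyte-like cells 1 of these markers was called lower and 1 higher. The part of stray BMSC transcripts in the change of Tgfbr3 was not tested.

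Tgfbr2, the type II receptor kinase, was highest in endothelial-like cells, at 356 and 366 CPM in Control and 219 and 228 CPM in Fracture (log2 -0.69 ± 0.06, adjusted p = 0.00555). It also fell in chondrocyte-like cells, from 112 and 96.1 to 62.1 and 63.1 CPM (log2 -0.73 ± 0.09, adjusted p = 0.00734). Within the chondrocyte subclusters compared further below, Tgfbr2 was not called in any. Among these it was highest in Serpina1 cells, at 157 and 137 CPM in Control and 136 and 142 CPM in Fracture. In fibroblast-like cells, the class with the next highest level, it was 118 and 119 CPM in Control and 156 and 146 CPM in Fracture, without overlap, but was not called (log2 0.35 ± 0.10, adjusted p = 0.0890).

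In BMSC-like cells Tgfbr2 stood at 60.4 and 59.6 against 62.3 and 63.1 CPM, and in osteoblast-like and smooth muscle-like cells the groups overlapped. Both calls were lost with either Fracture preparation left out (adjusted p between 0.0821 and 0.0934). Tgfbr1, the type I receptor kinase, averaged 28.8 to 33.3 CPM in every class of Fracture but the chondrocyte-like, where it was 19.0 CPM. It fell in fibroblast-like cells from 79.9 and 67.8 CPM, the highest level of the 6 classes in Control, to 30.4 and 32.5 CPM (log2 -1.24 ± 0.14, adjusted p = 0.0125), a class whose clusters held different shares of it in the groups. In endothelial-like cells it went from 40.7 and 44.1 to 33.1 and 33.5 CPM (log2 -0.35 ± 0.09, adjusted p = 0.0446), a call that was lost in 6 of 10 other ways of processing. With either Fracture preparation left out, both calls of Tgfbr1 were lost (adjusted p between 0.222 and 0.257), and in the other 4 classes it was not called.

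Ltbp1, which ties latent TGF-β to fibrillin-rich matrix, moved in opposite directions between classes. It rose in chondrocyte-like cells from 28.1 and 22.2 CPM to 98.9 and 105 CPM (log2 2.02 ± 0.13, adjusted p = 0.00241), and in fibroblast-like cells from 180.0 and 111 to 419.9 and 444 CPM (log2 1.56 ± 0.25, adjusted p = 0.0252). It fell in smooth muscle-like cells from 319 and 231 to 52.0 and 66.2 CPM (log2 -2.22 ± 0.22, adjusted p = 0.00377).

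Among the 6 classes BMSC-like cells had the highest Ltbp1 level of Control, 407 and 419.8 CPM, and held 247 and 271 CPM in Fracture (log2 -0.68 ± 0.08, adjusted p = 0.00407), when fibroblast-like cells came first. Osteoblast-like cells showed 59.5 and 61.1 against 61.0 and 63.4 CPM, with overlapping groups and a log2 fold change of 0.04 ± 0.07. Endothelial-like cells, with 30.5 and 14.5 against 41.1 and 28.7 CPM, also overlapped. The call in fibroblast-like cells was lost with either Fracture preparation left out and that in chondrocyte-like cells without Fracture preparation 1 (adjusted p between 0.0502 and 0.279). With the first library alone the fibroblast-like call was lost as well (adjusted p = 0.0649).

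Ltbp2, a matrix protein of the LTBP family that does not bind latent TGF-β, was concentrated in BMSC-like and fibroblast-like cells. It fell in both, from 403 and 415 to 162 and 132 CPM in BMSC-like cells (log2 -1.48 ± 0.12, adjusted p = 0.00188) and from 272 and 315 to 131 and 143 CPM in fibroblast-like cells (log2 -1.10 ± 0.13, adjusted p = 0.0139). The other 4 classes held between 1.39 and 20.9 CPM, and the Control preparations differed from each other there, as in endothelial-like cells with 16.4 and 4.05 CPM. The fibroblast-like call was lost with either Fracture preparation left out (adjusted p of 0.249 and 0.275).

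Ltbp3, which also binds latent TGF-β and is needed for normal growth of bone, was called in 1 class. It was highest in fibroblast-like cells, at 249 and 188 CPM in Control and 167 and 170 CPM in Fracture (log2 -0.38 ± 0.16, adjusted p = 0.185). It rose in chondrocyte-like cells, from 51.3 and 49.9 to 62.4 and 59.9 CPM (log2 0.27 ± 0.06, adjusted p = 0.0239), a call lost with either Fracture preparation left out (adjusted p of 0.182 and 0.138) and in 2 of 10 other ways of processing (adjusted p up to 0.0689). In endothelial-like cells Ltbp3 was 34.1 and 32.7 against 43.1 and 40.4 CPM (adjusted p = 0.0530).

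Tgfbi encodes an adhesive matrix protein that was found through its induction by TGF-β. It rose in 5 of the 6 classes, and 3.93% of the genes tested in all classes were higher in at least 5. In BMSC-like cells it went from 24.5 and 15.3 CPM to 205 and 188 CPM, a 9.90-fold higher mean (log2 3.31 ± 0.25, adjusted p = 0.00172). Fibroblast-like cells had the highest level in both groups, 181 and 147 CPM in Control and 630.4 and 587 CPM in Fracture (log2 1.89 ± 0.15). Endothelial-like cells rose from 36.2 and 35.4 to 132 and 126 CPM (log2 1.85 ± 0.07).

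In smooth muscle-like cells Tgfbi rose from 5.82 and 13.3 to 89.8 and 66.9 CPM (log2 3.17 ± 0.41), and in osteoblast-like cells from 1.29 and 1.03 to 8.40 and 6.89 CPM (log2 2.69 ± 0.20). The groups did not overlap in any of these 5 classes, as in every call. Chondrocyte-like cells overlapped, at 97.8 and 123 against 121 and 122 CPM (log2 0.14 ± 0.12, adjusted p = 0.415). Of the 5 calls, the one in BMSC-like cells stayed without any 1 preparation. The others were lost with either Fracture preparation left out, or, in smooth muscle-like cells, without Fracture preparation 1 (adjusted p between 0.0627 and 0.179). Tgfbi in endothelial-like cells was 36.6% and 28.5% of the chondrocyte-like level in Control and 110.4% and 104% in Fracture, and in osteoblast-like cells 1.24% and 0.766% against 7.62% and 6.00%. Set against fibroblast-like cells, Tgfbi in osteoblast-like cells stood at 0.705% and 0.644% of that level in Control and at 1.43% and 1.22% in Fracture. The fibroblast markers in osteoblast-like cells, 3 of the 5 tested called higher, summed to 0.120% and 0.0326% of their own level in Control and to 0.865% and 1.05% in Fracture. In CPM these sums were 24.4 and 7.37 against 58.0 and 76.4.

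Markers of other classes were also called higher in smooth muscle-like, fibroblast-like and BMSC-like cells, where Tgfbi and Tgfb2 rose. Endothelial-like cells had a higher chondrocyte marker sum as well, and Tgfb2 was not called there (log2 -0.01 ± 0.10). In smooth muscle-like cells the chondrocyte markers, all 7 called higher, summed to 1.47% to 1.5% of their own level in Control and to 7.61% to 10.1% in Fracture. The fibroblast markers there, 3 of the 5 tested called higher, summed to 3.18% to 3.63% and to 27.2% to 31.3%. In CPM the sums of these fibroblast markers were 742 and 719 in Control and 1822 and 2278 in Fracture. In fibroblast-like cells the chondrocyte markers, 5 of 7 called higher, stood at 5.09% to 6.07% and at 19.1% to 20.7%. In BMSC-like cells all 7 chondrocyte markers were called higher, and their sum went from 610 and 264 CPM to 2300 and 2361 CPM, or from 0.747% and 0.365% of their own level to 2.68% and 2.76%. All 6 fibroblast markers were called higher there too, from 0.517% and 0.254% of their own level to 18.2% and 18.3%. The own level of the fibroblast markers in Fracture was 32.5% of that in Control, so percentages of it rose by more than the sums in CPM. The part of these transcripts in the members' changes was not tested.

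Fibroblast-like cells were a mixture that differed between the groups, as clusters made without integration showed. A Cytl1 Chad cluster held 261 and 55 Control cells, 58.4% and 39.6% of the class, and 14 and 12 Fracture cells, 1.31% and 0.985% of it. A Mfap5 Dpt cluster held 177 and 81 Control cells and 1040 and 1175 Fracture cells, or 39.6% and 58.3% against 97.4% and 96.5%. Both are named by leading genes. The first had too few Fracture cells for a comparison.

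Within the Mfap5 Dpt cluster 2 members were called in place of 7 in the class, where 8.99% of all genes were called, and 4 had an unadjusted p under 0.05 (edgeR). Tgfbr1 fell from 57.9 and 49.5 to 28.6 and 31.8 CPM (log2 -0.84 ± 0.14, adjusted p = 0.0353), and Tgfbr3 from 138 and 163 to 70.3 and 73.3 CPM (log2 -1.06 ± 0.15, adjusted p = 0.0273). Tgfb1 was 163 and 66.4 CPM in Control and 114 and 108 CPM in Fracture, with overlapping groups (log2 -0.08 ± 0.40, adjusted p = 0.918). Tgfbi, at 266 and 138 against 553 and 522 CPM, did not overlap and was not called (log2 1.41 ± 0.33, adjusted p = 0.0653). The same held for Ltbp2, at 299 and 292 against 204 and 188 CPM (adjusted p = 0.0739), and for Tgfb2 and Ltbp1 (adjusted p = 0.193 and 0.239).

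BMSC-like cells were examined again with clusters made without integration, which placed 2707 and 1781 Control cells and 578 and 623 Fracture cells in this class. Their BMSC markers in Fracture stood at 12.7% of the Control level. Tgfb1 still rose, by 1.22 ± 0.19 on the log2 scale, as did Tgfb2 (0.79 ± 0.19) and Tgfbi (1.32 ± 0.23), the last pair by less than in the integrated clusters. Tgfbr3 fell by 2.30 and Ltbp1 by 0.91. Ltbp2 changed by -3.55 ± 0.12, and Tgfbr2, not called in the integrated clusters, was called lower (-0.52 ± 0.13, adjusted p = 0.0284).

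**Figure D3:**
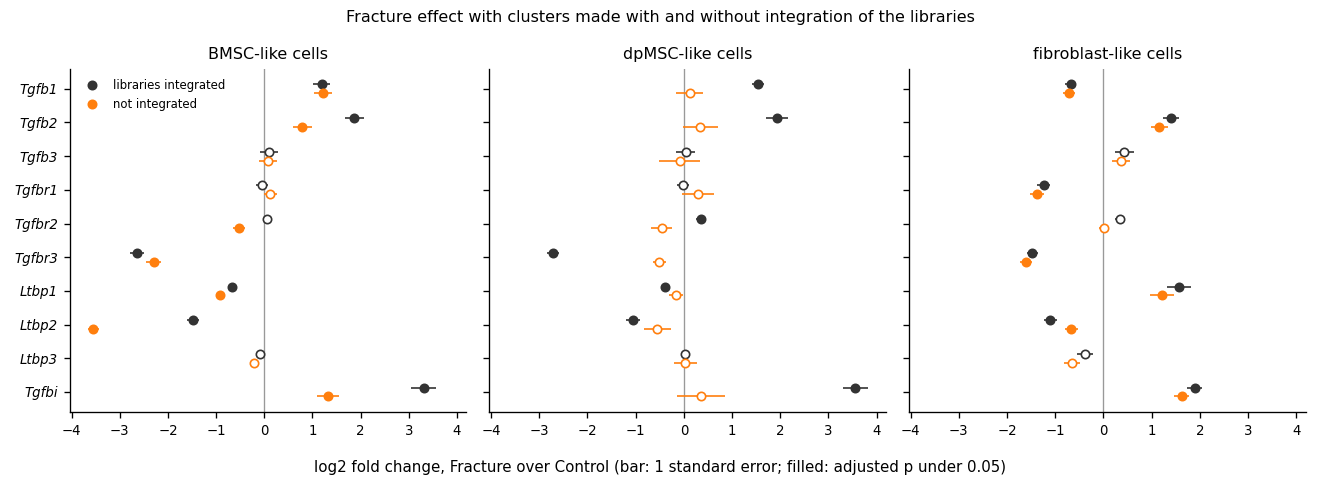
Log2 fold change of each gene, Fracture over Control, in BMSC-like, dpMSC-like and fibroblast-like cells, with clusters made after integration of the libraries (black) and without it (orange). Bars are 1 standard error and filled points have an adjusted p under 0.05. In dpMSC-like cells no orange point is filled, and Tgfb1, Tgfb2, Tgfbr3 and Tgfbi lie closer to 0 without integration than with it.

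Within the BMSC-like cells, a subcluster with the markers of diaphyseal mesenchymal stromal cells (dpMSC-like, with Esm1, Adipoq, Lepr, Cxcl12 and Lpl) held 1750 and 1261 Control and 421 and 455 Fracture cells. In it 4 members rose and 3 fell, where 55.3% of all genes were called (27.9% higher, 27.4% lower). Tgfbr3 went from 553 and 607 CPM to 80.7 and 95.7 CPM (log2 -2.72 ± 0.13), and Tgfbi from 28.9 and 18.4 to 308 and 249 CPM (log2 3.56 ± 0.26). Tgfb1 rose by 1.54 and Tgfb2 by 1.93 on the log2 scale.

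Markers of other classes were higher in these Fracture cells. All 6 fibroblast markers were called higher, their sum going from 36.7 and 19.3 to 1402 and 1678 CPM, or from 0.180% and 0.0852% to 20.9% and 23.0% of their own level. All 7 chondrocyte markers (422 and 115 against 2504 and 2658 CPM) and 3 of the 5 erythroid markers were called higher as well. Their part in the changes of the members was not tested.

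The name dpMSC-like did not hold for the Fracture cells of this subcluster, whose markers stood at 6.8% of the Control level. Without integration, 21 and 42 Fracture cells were placed in it, and their markers stood at 69.1% of the Control level. No member was called in these cells by edgeR, and 1 had an unadjusted p under 0.05. Tgfbi then differed by 0.36, Tgfbr3 by -0.51 and Tgfb1 by 0.12 on the log2 scale. The calls in the integrated subcluster rest on its 421 and 455 Fracture cells.

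A subcluster led by Mmp9 and Hey1 held 818 and 456 Control and 455 and 494 Fracture cells. It showed 2 of the 5 markers of metaphyseal mesenchymal stromal cells and was not given that name. In it 3 members rose and 3 fell, against 26.8% of all genes called (14.3% higher, 12.4% lower). Tgfb2 rose from 14.7 and 9.19 to 68.7 and 60.1 CPM (log2 2.41 ± 0.24), as did Tgfb1 (log2 0.77 ± 0.13) and Tgfbi (log2 2.12 ± 0.35). Ltbp2 fell from 95.7 and 161 to 19.0 and 21.5 CPM (log2 -2.66 ± 0.27), Tgfbr3 by 1.76 and Ltbp1 by 0.98. With either Fracture preparation left out, no member was called here by edgeR, with 7 at an unadjusted p under 0.05. All 6 BMSC markers were called lower here, their sum going from 7384 and 8229 to 1581 and 1598 CPM. Of the chondrocyte markers 6 of 7 were called higher (790.2 and 488 against 1748 and 1738 CPM), as were 3 of the 5 fibroblast markers tested. The sum of the fibroblast markers went from 110 and 70.0 to 390 and 505 CPM. As a share of their own level it went from 0.537% and 0.310% to 5.82% and 6.93%. The part of these transcripts was not tested.

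Chondrocyte-like cells were a mixture that shifted with fracture. A Serpina1 subcluster made up 55.4% and 54.5% of the class in Control and 24.9% and 25.6% in Fracture, and a Chrdl2 Aldh1a3 subcluster 23.9% and 22.7% in Control and 47.5% and 46.8% in Fracture. A Mmp13 Tnfsf11 subcluster went from 9.85% and 12.1% to 20.6% and 20.5%, and dividing cells of a Top2a subcluster from 10.5% and 8.81% to 6.11% and 6.23%. The subclusters are named by leading genes.

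Within these subclusters Tgfb1 was not called in any. It averaged 141 CPM in both groups in Chrdl2 Aldh1a3 cells, 78.4 and 80.9 CPM in Serpina1 cells, and 128 and 113 CPM in Top2a cells, Control before Fracture. In Mmp13 Tnfsf11 cells it was 189.6 and 193 CPM in Control and 283 and 269.9 CPM in Fracture, without overlap (log2 0.53 ± 0.10, adjusted p = 0.0530). The class as a whole was higher in Fracture by 0.51. Tgfb3 was lower in Chrdl2 Aldh1a3 cells of Fracture, with 62.7 and 61.1 against 44.8 and 46.3 CPM (log2 -0.44 ± 0.08, adjusted p = 0.0168), opposite to its direction in the whole class.

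**Figure D4:**
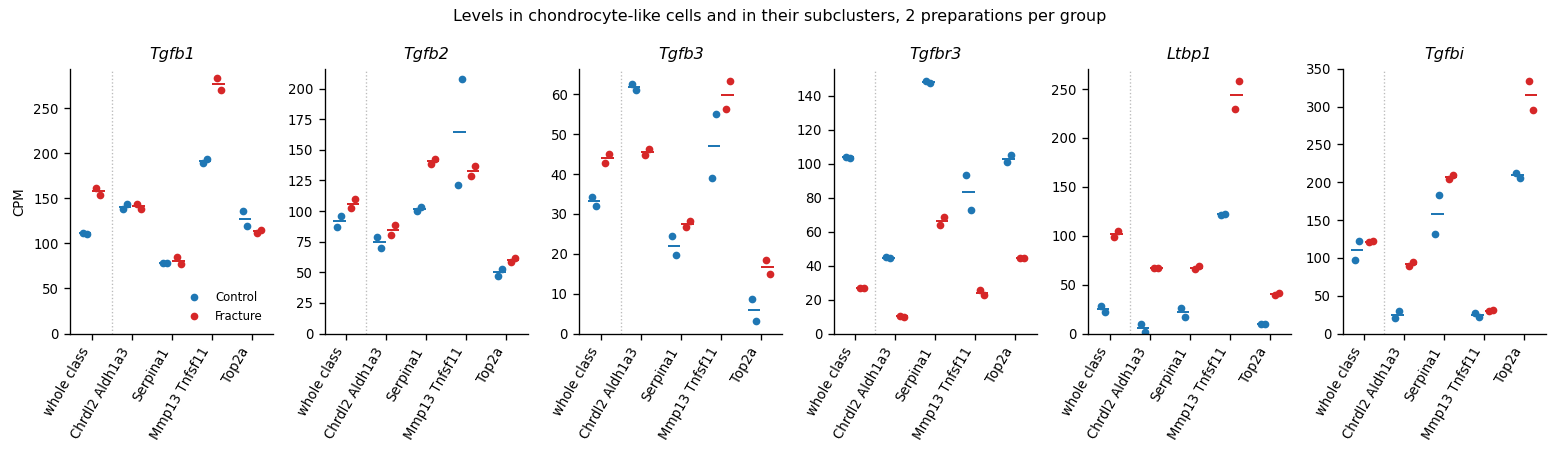
Level in CPM of 6 genes in all chondrocyte-like cells and in 4 of their subclusters, with 1 point per preparation, Control in blue and Fracture in red, and a bar at the mean of each pair. Tgfbr3 is lower and Ltbp1 higher in Fracture in every subcluster, while Tgfb1 was called in the whole class and in none of the subclusters.

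Tgfbr3 fell and Ltbp1 rose in all 4 chondrocyte subclusters. Tgfbr3 was 149 and 148 CPM in Serpina1 cells of Control and 64.1 and 68.4 CPM in those of Fracture (log2 -1.16 ± 0.06), and 45.2 and 44.3 against 10.5 and 9.71 CPM in Chrdl2 Aldh1a3 cells (log2 -2.15 ± 0.10). Ltbp1 was highest in Mmp13 Tnfsf11 cells, with 122 and 122 CPM in Control and 229.9 and 258 CPM in Fracture (log2 1.00 ± 0.12). Tgfbi, not called in the class, rose in Chrdl2 Aldh1a3 cells from 19.9 and 29.3 to 89.9 and 94.7 CPM (log2 1.92 ± 0.20) and in Top2a cells from 213 and 206 to 334 and 296 CPM (log2 0.59 ± 0.10). Tgfb2 rose in Serpina1 cells alone among the 4, from 99.7 and 103 to 138 and 143 CPM (log2 0.47 ± 0.06), and whether that effect differs from those in the other subclusters was not tested. In all, 5 members were called in Chrdl2 Aldh1a3 cells, 3 in Serpina1, 2 in Mmp13 Tnfsf11 and 3 in Top2a cells, where 28.2%, 17.6%, 6.06% and 10.7% of all genes were called.

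The share of a transcript that each class contributed is given for the whole suspension. Of all Tgfb1 UMIs, chondrocyte-like cells held 14.2% and 11.3% in Control and 58.0% and 57.0% in Fracture, while blood cells held 52.7% and 44.9% in Control and 2.54% and 2.45% in Fracture. Megakaryocyte-like cells were rich in Tgfb1, with 713 and 526 CPM in Control and 421 and 460.5 CPM in the 22 and 21 such cells of Fracture. They also held 1678 and 1468 CPM of Ltbp1 in Control, and blood cells as a whole held 57.7% and 33.8% of the Ltbp1 UMIs of Control.

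Since blood cells were depleted before capture, these shares describe the suspensions and not the bone. Markers of basophils and megakaryocytes reached at most 1.43% of their own level in any of the 6 classes of Control and were lower in Fracture in all 6. Erythroid markers did not follow them. The erythroid marker sum went from 277 and 86.0 CPM to 1099 and 1200.2 CPM in endothelial-like cells, with 3 of 5 called higher, and from 33.2 and 71.4 to 1567 and 1755 CPM in smooth muscle-like cells, with 3 of 3 called higher. It reached 5.42% of its own level in endothelial-like cells of Control preparation 1. Monocyte markers reached 7.88% of their own level in endothelial-like cells of Control preparation 2, and none of them was called higher in any of the 6 classes by edgeR. The part of blood cell transcripts in the values of Tgfb1 and Ltbp1 was not tested. Tgfb2 came mostly from chondrocyte-like cells in both groups, with 67.3% and 55.2% of its UMIs in Control and 74.2% and 73.0% in Fracture. Over all cells together, Tgfbr3 stood at 101 and 109 CPM in Control and 31.2 and 31.9 CPM in Fracture, and Tgfbi at 36.5 and 25.9 against 135 and 131 CPM.

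Whether the effect of fracture differed between classes was tested against BMSC-like cells, with the preparation as a block, in 3 comparisons across all genes. In chondrocyte-like cells 8 of the 10 members had a different effect, where 47.1% of all genes did. Against osteoblast-like cells 5 members differed (38.1% of all genes), and against endothelial-like cells 8 (27.2%). Without Fracture preparation 1 or 2 these counts were 5 and 4 in chondrocyte-like and 5 and 5 in endothelial-like cells, and without the block 3 members differed in osteoblast-like cells. In the integrated clusters the largest difference among the members was in Tgfbi, whose effect was lower in chondrocyte-like than in BMSC-like cells by 3.15 ± 0.26 (SE, log2 scale). The effect on Ltbp1 was higher in chondrocyte-like cells by 2.69 ± 0.13, and that on Tgfb3 was higher in endothelial-like cells by 1.97 ± 0.20. Tgfbr1 did not pass in any of the 3. The sizes depended on the clustering. Without integration Tgfbi in chondrocyte-like cells still differed in the same direction, by -1.14 (adjusted p = 0.00865 by edgeR), whereas Ltbp2 differed by 3.45 and Ltbp1 by 3.09. The differences of Tgfbi in osteoblast-like and endothelial-like cells turned, to 1.89 and 0.50.

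Other genes of the pathway were followed in 4 lists, in the integrated clusters only. List values for BMSC-like cells thus rest on Fracture cells whose own markers were far below the Control level. The genes named from a list are those called in most classes here, so calls in many classes follow from how they were picked. The lists themselves were chosen with earlier results of these data known. A share called above that of all genes can therefore follow from that choice. The activation and storage list held 20 genes for proteins that hold or free the latent ligand, of which 16 to 19 were tested per class. In chondrocyte-like cells 9 rose and 4 fell, in osteoblast-like cells 5 and 4, in BMSC-like cells 10 and 1, in fibroblast-like cells 7 and 0, in endothelial-like cells 7 and 3, and in smooth muscle-like cells 7 and 0. The median log2 fold change ran from 0.25 in osteoblast-like to 0.81 in smooth muscle-like cells, beside -0.03 to 0.01 for all genes. The genes called were 68.4%, 50% and 57.9% of those tested in chondrocyte-like, osteoblast-like and BMSC-like cells, beside 37%, 16.6% and 53.2% of all genes. In fibroblast-like, endothelial-like and smooth muscle-like cells they were 38.9%, 55.6% and 43.8%, beside 13.9%, 36.9% and 26.9%. The share in BMSC-like cells was thus near that of all genes.

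Mmp14 and Mmp2, membrane-bound and secreted metalloproteinases that can release latent TGF-β, rose in all 6 classes. Of the genes tested in all classes 3.93% were higher in at least 5, and the share for all 6 was not counted. Mmp14 went from 265 and 225 to 818 and 799 CPM in BMSC-like cells. Bmp1, a protease that cleaves LTBP1, rose in every class but the chondrocyte-like, where it was 76.8 and 66.9 against 70.7 and 62.0 CPM. Emilin1, which keeps the TGF-β1 precursor from being processed, rose in 5 classes and was not called in smooth muscle-like cells. Thrombospondin 1 (Thbs1), an activator of latent TGF-β, rose in BMSC-like, endothelial-like and smooth muscle-like cells and fell in osteoblast-like cells, from 814 and 804 to 537 and 574 CPM. Fibrillin 2 (Fbn2) rose in 4 classes, in fibroblast-like cells from 7.72 and 7.14 to 118 and 136 CPM, and fell in osteoblast-like cells.

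Of 13 signal transducers, 12 were tested in each class. In chondrocyte-like cells 5 rose and 0 fell, in osteoblast-like cells 1 rose, in BMSC-like cells 1 rose and 4 fell, in fibroblast-like cells edgeR called none, with 2 at an unadjusted p under 0.05, in endothelial-like cells 0 rose and 4 fell, and in smooth muscle-like cells 2 rose and 1 fell. These calls are 41.7% of the list in chondrocyte-like and in BMSC-like cells, 33.3% in endothelial-like, 25% in smooth muscle-like and 8.33% in osteoblast-like cells. Of all genes 37%, 53.2%, 36.9%, 26.9% and 16.6% were called in these classes, and 13.9% in fibroblast-like cells, so the list stood near the share of all genes or under it in every class. Endoglin (Eng) and Acvrl1, a co-receptor and a type I receptor best known from vessels, both fell in endothelial-like cells. Acvrl1 went there from 193 and 177 to 89.8 and 91.8 CPM (log2 -1.03 ± 0.07) and Eng from 1049.9 and 1044 to 793 and 859 CPM (log2 -0.34 ± 0.08). In chondrocyte-like cells both rose, Acvrl1 from 1.86 and 1.17 to 5.05 and 5.07 CPM and Eng from 9.67 and 9.48 to 19.98 and 20.3 CPM. Smad4, the shared partner of the receptor-activated SMADs, rose in chondrocyte-like cells (log2 0.27 ± 0.05) and fell in BMSC-like (-0.31 ± 0.07) and endothelial-like cells (-0.38 ± 0.06). Tab1 rose in BMSC-like and fell in smooth muscle-like cells, and Zfyve9, which anchors SMADs at endosomes, fell in BMSC-like and endothelial-like cells.

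**Figure D5:**
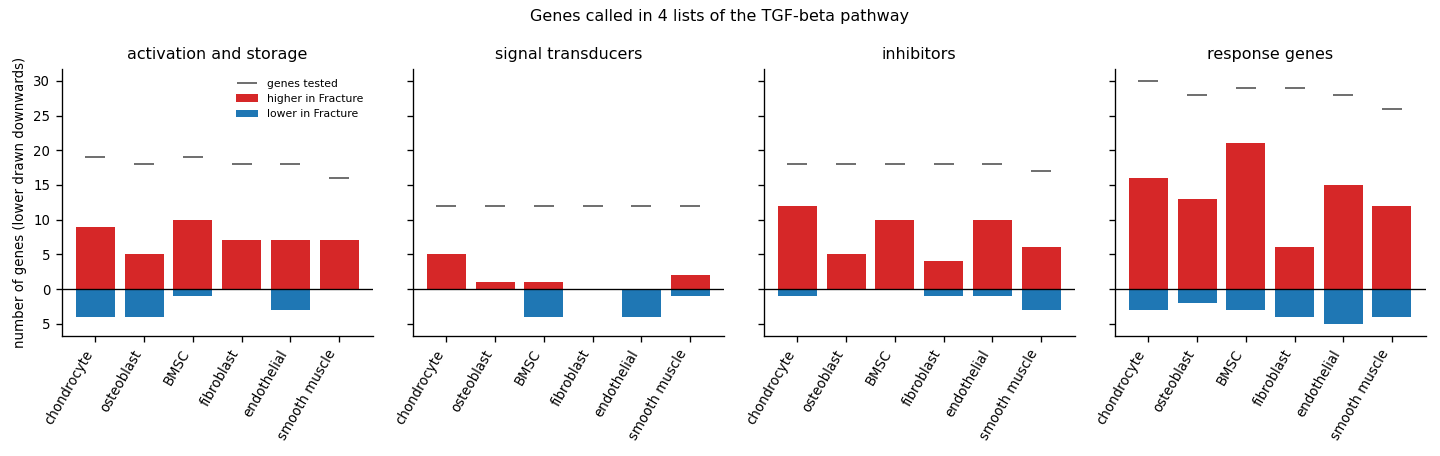
Number of genes called higher (red, upwards) or lower (blue, downwards) in Fracture for 4 lists of the pathway in 6 classes, with a grey dash at the number tested. More genes were called higher than lower in every class for the activation and storage, inhibitor and response lists, and for the transducers 4 were lower in BMSC-like and in endothelial-like cells.

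Among 18 inhibitors, 12 rose and 1 fell in chondrocyte-like cells, 5 and 0 in osteoblast-like, 10 and 0 in BMSC-like, 4 and 1 in fibroblast-like, 10 and 1 in endothelial-like, and 6 and 3 in smooth muscle-like cells, where 17 were tested. The share called was 72.2% in chondrocyte-like (37% of all genes), 27.8% in osteoblast-like (16.6%) and 55.6% in BMSC-like cells (53.2%), the last near that of all genes. It was 27.8% in fibroblast-like (13.9% of all genes), 61.1% in endothelial-like (36.9%) and 52.9% in smooth muscle-like cells (26.9%). Asporin (Aspn), a small matrix proteoglycan that binds TGF-β1, rose in 5 classes and fell in smooth muscle-like cells. It went from 5.79 and 9.48 to 709 and 655 CPM in BMSC-like cells and was highest in fibroblast-like cells, with 2083 and 2001 CPM in Fracture. Pmepa1, a feedback inhibitor of SMAD signalling that is itself induced by TGF-β, rose in 5 classes with log2 fold changes of 0.44 to 0.87 and was not called in smooth muscle-like cells. Bambi, a receptor without a kinase domain, rose in chondrocyte-like cells from 82.6 and 84.7 to 309 and 298 CPM (log2 1.86 ± 0.05) and fell in fibroblast-like cells. Biglycan (Bgn), decorin (Dcn) and Fkbp1a rose in 4 classes each.

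Of 30 response genes, 26 to 30 were tested per class. In chondrocyte-like cells 16 rose and 3 fell, in osteoblast-like cells 13 and 2, in BMSC-like cells 21 and 3, in fibroblast-like cells 6 and 4, in endothelial-like cells 15 and 5, and in smooth muscle-like cells 12 and 4. The share called was 63.3% of 30 genes tested in chondrocyte-like (37% of all genes), 53.6% of 28 in osteoblast-like (16.6%) and 82.8% of 29 in BMSC-like cells (53.2%). It was 34.5% of 29 in fibroblast-like (13.9% of all genes), 71.4% of 28 in endothelial-like (36.9%) and 61.5% of 26 in smooth muscle-like cells (26.9%). The median log2 fold change of the list was 1.51 in BMSC-like and 0.32 in fibroblast-like cells, the highest and the lowest of the 6, beside -0.03 to 0.01 for all genes. The value for BMSC-like cells is from the integrated clusters alone. Col3a1, Timp1 and Snai1, named because they were called in most classes, rose in all 6. Among genes tested in all classes, 3.93% were higher in at least 5, and the share higher in all 6 was not counted. Snai1, a transcription factor of mesenchymal cells, went from 34.5 and 36.3 to 74.4 and 71.3 CPM in endothelial-like cells and from 80.3 and 81.8 to 119 and 122 CPM in chondrocyte-like cells. Col3a1, a fibrillar collagen of fibroblasts, went from 22.0 and 7.05 to 1766 and 1717 CPM in chondrocyte-like cells, while fibroblast-like cells held 5444 and 2785 CPM of it in Control and 19957 and 19995 CPM in Fracture. The part of stray fibroblast transcripts in Col3a1 of the other classes was not tested. Bhlhe40 and Lox rose in 5 classes, and Timp3 rose in 2 and fell in 3.

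For each ligand, the genes whose level followed it most closely over the 24 sums of 6 classes and 4 preparations were taken from 8715 genes. These points share cells, libraries and depth, and the correlations are a description. Tgfb1 was followed by Shb (Pearson r = 0.856), Fam102a (0.839) and Jam2 (0.837). Tgfb2 was followed by Mfge8 (0.909), Aldoa (0.901) and Vps37b (0.898), and Tgfb3 by 2010012O05Rik (0.940), Pacsin3 (0.939) and Itgb5 (0.939). Among the members themselves the highest correlations were between Ltbp2 and Ltbp3 (0.828) and between Tgfb2 and Tgfbi (0.791), and the lowest between Tgfb1 and Tgfb3 (-0.702).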

How the data were processed

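The authors deposited, for each of 8 droplet libraries, unnormalised UMI counts of each gene in each barcode, on build mm10. The submitters' processing notes name bcl2fastq 2.19.1.403, UMI-tools 1.0.0, STAR 2.7.3a, Subread and featureCounts 1.6.4, and the study's methods name STARsolo. Which of them selected the 48903 barcodes is not settled here. Library totals ran from 56543151 to 89126291 UMIs. Reads lie near the 3′ ends of transcripts, so CPM compares 1 gene between samples and classes, and levels of different genes were not compared.

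Cells with 500 to 6000 genes and at most 25% mitochondrial UMIs (27 genes) were kept, as were 26357 genes seen in at least 3 cells. Libraries were integrated and clustered with Seurat 5.3.0 (2000 variable genes, of which 1893 were used after 201 listed genes were left out, 30 integration dimensions, 12 components, resolution 0.1). Stromal cells were subclustered with 1864 genes, 13 components and resolution 0.08. A class was named where at least 3 markers, and 50% of its list, were at least 2-fold higher and seen in 20% of cells. The separation of fibroblast-like cells as a class was settled after the clusters had been seen. Doublets called with scrublet (scanpy 1.11.5, 6% expected) numbered 526 cells, or 1.16%, and stayed in. In 3 Fracture libraries scrublet called 4, 3 and 0 cells and did not work, so the 6% highest scores were removed as an alternative added after seeing the data.

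UMIs were summed per class and preparation, over both libraries, with at least 20 cells in each sum. Fracture and Control were compared with edgeR 4.0.16 and its quasi-likelihood test (R 4.3.3, TMM factors, filterByExpr, Benjamini-Hochberg adjustment over all genes tested in a class, adjusted p under 0.05). Classes were normalised separately, so an order of levels across classes is approximate. Differences of effect between classes were tested with a class-by-group term and the preparation as a block. Each standard error (SE) was derived from its test, as the absolute log2 value over the square root of the F statistic. It is thus not a plain spread over the preparations. With 2 preparations per group, and no label saying that they came from separate animals, p-values measure only the spread between these preparations, which may be technical. DESeq2 1.42.0 was an alternative, as were other size factors, no low-count filter, doublet removal, no integration, cells with at least 3000 UMIs, single libraries, single preparations left out and, added after seeing the data, the chondrocyte subclusters and a cluster of fibroblast-like cells. The fits were tested on simulated data with known changes.

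The 10 members and the 4 pathway lists were chosen with earlier results of these data known. All members are named, and not every value by class is printed in the text. From the lists, genes called in at least 2 of the 6 classes were named, at most the 6 called in most classes, with ties broken by the smallest adjusted p. For each ligand the 3 genes with the highest Pearson correlation of log2(CPM + 1) were named, among genes with a mean of at least 20 CPM in a class. Correlations of same-numbered preparations' deviations from their group means lay between 0.0046 and 0.0727, so the numbers were not taken to pair the preparations.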

Additional observations from a re-analysis of the deposited data

Results flagged for a closer look

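For 21 of the 30 differences tested, the effect of fracture on a member differed between a class and BMSC-like cells (edgeR, class-by-group term, adjusted over all genes). Each value is the log2 effect in the class minus that in BMSC-like cells, so that a negative value is a lower effect in the class. The members called numbered 8 in chondrocyte-like (47.1% of all genes called), 8 in endothelial-like (27.2%) and 5 in osteoblast-like cells (38.1%). Without Fracture preparation 1 or 2 they numbered 5 and 4, 5 and 5, and 4 and 4, and without the block 3 were called in osteoblast-like cells.

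In chondrocyte-like cells the ligands gave -0.70 for Tgfb1 (adjusted p = 0.00781) and -1.68 for Tgfb2 (adjusted p = 0.000107). The receptors gave -0.80 for Tgfbr2 (0.000561) and 0.69 for Tgfbr3 (0.00503). The difference was 2.69 for Ltbp1 (adjusted p = 2.19e-05), 1.05 for Ltbp2 (0.0142), 0.36 for Ltbp3 (0.00707) and -3.15 for Tgfbi (0.000138). Tgfbr3 fell in both classes, and Ltbp1 rose in one and fell in the other.

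In endothelial-like cells the ligands gave -1.01 for Tgfb1 (adjusted p = 0.00872), -1.87 for Tgfb2 (0.000177) and 1.97 for Tgfb3 (0.000685). The difference was -0.73 for Tgfbr2 (adjusted p = 0.00165) and 1.62 for Tgfbr3 (0.000202). It was 1.35 for Ltbp1 (adjusted p = 0.0291), 0.44 for Ltbp3 (0.0122) and -1.44 for Tgfbi (0.00178).

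In osteoblast-like cells the ligands gave -0.59 for Tgfb1 (adjusted p = 0.00207) and 1.76 for Tgfb2 (0.000164). The difference was 1.29 for Tgfbr3 (adjusted p = 0.000362), 0.72 for Ltbp1 (4.48e-05) and -0.57 for Tgfbi (0.0452). All 21 rest on the BMSC-like cells of Fracture, whose own markers were far below the Control level, and those of Tgfbi in osteoblast-like and endothelial-like cells turned without integration.

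In clusters made without integration 3 others of the 21 kept their direction and lost their call. They were Tgfbr2 in chondrocyte-like cells (-0.21, adjusted p = 0.231) and in endothelial-like cells (-0.13, adjusted p = 0.455), and Tgfbr3 in chondrocyte-like cells (0.31, adjusted p = 0.107). Tgfb2 moved to -0.57 in chondrocyte-like, -0.80 in endothelial-like and 3.06 in osteoblast-like cells. In chondrocyte-like cells Ltbp2 moved to 3.45 (adjusted p = 3.59e-05), Ltbp1 to 3.09 (4.30e-06) and Tgfbi to -1.14 (0.00865). Other differences were called by edgeR only without integration. They were Ltbp2 in endothelial-like (2.84, adjusted p = 0.00850) and osteoblast-like cells (2.81, 0.000589), and Ltbp3 in osteoblast-like cells (0.31, 0.0317).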

How the results depend on the processing

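Of the 33 calls in the 6 classes, 33 kept their direction in 10 alternatives that use all preparations and whole classes and 27 stayed called in all 10. The exceptions were Tgfbr1 in endothelial-like cells (lost in 6), Ltbp3 in chondrocyte-like cells, Tgfb1 in fibroblast-like cells and Tgfb2 in smooth muscle-like cells (lost in 2 each), and Ltbp1 in fibroblast-like and Tgfbr3 in osteoblast-like cells (lost with the first library alone). Without integration, Tgfbr2 turned to -0.52 in BMSC-like and -0.46 in dpMSC-like cells, and the difference for Tgfbi from BMSC-like cells turned to 1.89 in osteoblast-like and 0.50 in endothelial-like cells. With the first library alone the difference for Tgfbi in osteoblast-like cells was 0.21. Ltbp2 in endothelial-like cells ran from -1.24 to 0.79 when 1 preparation was left out, the last without Control preparation 1. A further 46 values changed sign with neither value called. The cause was not tested.

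The number of members called moved to 0 in dpMSC-like cells without integration (edgeR, 2 genes called in all and 1 member at an unadjusted p under 0.05), where fewer Fracture cells were placed in the class. It was 3, 2 and 3 within the Serpina1, Mmp13 Tnfsf11 and Top2a subclusters of chondrocyte-like cells, and 2 within the Mfap5 Dpt cluster of fibroblast-like cells, with 1157 genes called. With 1 preparation left out it ran from 1 to 9 in chondrocyte-like, 0 to 8 in osteoblast-like, 6 to 7 in BMSC-like, 0 to 9 in fibroblast-like, 0 to 8 in endothelial-like, 2 to 6 in smooth muscle-like, 5 to 8 in dpMSC-like and 0 to 9 in Mmp9 Hey1 cells. The members with a different effect from BMSC-like cells ran from 4 to 9 in chondrocyte-like, 4 to 5 in osteoblast-like and 5 to 10 in endothelial-like cells. The lone preparation of a group was assumed to vary like the pair of the other group. In the 6 classes, calls over all genes rose without a Control preparation and fell without a Fracture preparation. These ranges are therefore no result about the members.

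The same-numbered preparations were not shown to be paired. With the replicate block the members called were 5 in chondrocyte-like, 4 in osteoblast-like, 6 in BMSC-like, 6 in fibroblast-like, 4 in endothelial-like, 5 in smooth muscle-like, 7 in dpMSC-like and 7 in Mmp9 Hey1 cells, and the genes called in all fell from 1748 to 707 in fibroblast-like and from 2286 to 1099 in osteoblast-like cells. Without the replicate block in the test between classes, 7, 3 and 7 members differed in chondrocyte-like, osteoblast-like and endothelial-like cells, and 3931 in place of 6031 genes in osteoblast-like cells.

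Other counts of genes called moved by over 1.5 times as well. Fibroblast-like cells gave 3380 without the low-count filter, 2786 without integration and 873 and 1093 with the first and second library alone. With single libraries the counts were 1388 and 1398 in osteoblast-like (2286 with both), 1667 and 1787 in smooth muscle-like (2818) and 1994 and 1816 in Mmp9 Hey1 cells (3241). The differences from BMSC-like cells called by DESeq2 were 3370 in osteoblast-like and 2265 in endothelial-like cells (4307 by edgeR), where the first library alone gave 2793. Low levels limit the precision of Tgfbi and Tgfb2 in osteoblast-like cells of Control.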

Other observations

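Blood cells that remained after depletion were not tested and are given as plain CPM. Basophil-like cells held Tgfb1 at 259 and 235 CPM in Control (1942 and 810 cells) and at 291 and 234 CPM in Fracture (79 and 79 cells), and the groups overlapped. Monocyte-like cells of Control held 256 and 223 CPM of Tgfb1 and erythroid-like cells 145 and 65.6 CPM, and Fracture had 12 monocyte-like cells in each preparation, too few for a level. Megakaryocyte-like cells held Tgfbr1 at 63.7 and 65.2 CPM in Control and at 69.6 and 76.7 CPM in Fracture, and the Fracture values rest on 21 UMIs each.

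Over all blood cells together Tgfb2 stood at 1.5 and 0.415 CPM in Control and at 16.7 and 33.6 CPM in Fracture, and Tgfbi at 5.51 and 3.40 against 23.0 and 17.7 CPM. Ltbp2 stood at 13.5 and 5.06 CPM in Control and at 4.41 and 6.23 CPM in Fracture, with overlapping groups. Tgfb2 and Tgfbi were abundant in chondrocyte-like cells, which made up most of the Fracture suspension. The part of free RNA or of doublets in these blood cell values was not tested.

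Over all cells of a preparation, Tgfb1 was 194 and 132 CPM in Control and 167 and 156 CPM in Fracture, with overlapping groups, whereas Tgfb2 was 31.8 and 23.6 against 82.3 and 86.8 CPM. Control preparation 2 held 1776 erythroid-like cells and Control preparation 1 held 643, and these sums include them.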
